A study of Mus musculus with 13 samples.

Results

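Livers of female C57BL6 mice kept on the standard diet (labelled ST) with a mixture of pollutants were compared with livers of mice on the same diet with vehicle alone. The samples were chosen by their titles and make up 8 of the 13 in the series, 5 biological replicates with the mixture and 3 with vehicle. All mice were 12 weeks old. The mixture held 4 pollutants whose names the labels do not give, nor do they give its dose and duration or the time of day and feeding state in which the livers were taken. Read literally, the design text places the mixture in the high-fat diet, whereas the title and diet field of each of the 5 exposed samples name the standard diet, and the sample labels were followed. The remaining 5 samples, from mice of the same strain, sex and age on the high-fat diet (labelled HFHS) with vehicle, enter the model of the spread between arrays and a direct comparison for single genes. The title of the series sets a low-dose mixture beside a high-fat challenge, and the comparison described here asks what the mixture changed without that challenge.

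Total RNA of whole liver was measured on one-colour arrays, on which each probe gives the brightness of its labelled RNA. A level is written here as the log2 of that signal minus the 75th percentile of its array, so that 0 is the 75th percentile and a difference of 1 is 2-fold. On the 8 arrays that percentile lay between 869 and 1170 intensity units, and 62.8% to 68.0% of the probes were well above background. Over all genes, correlations between 2 arrays ran from 0.979 to 0.992 within a group and from 0.978 to 0.992 between the groups. The arrays were run on 5 slides: vehicle replicates 1, 2 and 3 lay on slides 1, 2 and 5, and each slide held 1 pollutant array. On the first principal component of all 13 arrays, with 22.8% of the variance, slide 1 stood apart, so differences within slides 1, 2 and 5 are given beside the results. The 10 hepatocyte markers, Alb and Apoa1 among them, were all measured, with mean log2 levels of 7.47 to 7.85 on the pollutant arrays and 7.57 to 7.73 on the vehicle arrays. Because the RNA came from whole tissue, fewer cells of a type and less RNA per cell cannot be told apart.

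The liver keeps a daily clock in which the proteins of Arntl (also called Bmal1) and Clock switch on the period genes, Ciart and a set of output genes, whose products in turn hold the activators back. Cholesterol synthesis is governed by SREBP2, a factor that raises the enzymes from acetyl-CoA to cholesterol when sterols are scarce. Foreign compounds are typically sensed by the receptors AhR, CAR and PXR, whose best known targets are cytochromes of the Cyp1a, Cyp2b and Cyp3a families, and fatty acids by PPARalpha, which raises fatty acid oxidation, thioesterases and Cyp4a enzymes.

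To show the control sequences around which the changed clock and sterol genes are read, the 250 bases upstream of their start sites are given for the called genes of these lists named here by rule that hold a motif (RefSeq, build GRCm38.p6, 5′ to 3′ on the strand of the gene). The motifs searched on both strands were the E-box CACGTG bound by Clock and Arntl, the E-prime box CACGTT, the D-box TTATGTAA bound by Dbp and Tef, the ROR half-site TAGGTCA, and the sterol element TCACNCCAC bound by SREBP proteins. None of these letter strings can contain another, and CACGTG reads the same on both strands. Capitals mark the motif.

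Ciart, chr3:95882229-95882478, minus strand, 3 E-boxes: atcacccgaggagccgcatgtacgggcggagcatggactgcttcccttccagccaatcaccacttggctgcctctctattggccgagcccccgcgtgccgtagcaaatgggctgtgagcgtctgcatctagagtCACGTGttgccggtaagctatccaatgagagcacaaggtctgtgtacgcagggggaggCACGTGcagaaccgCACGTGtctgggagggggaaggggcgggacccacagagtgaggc
Per1, chr11:69098699-69098948, plus strand, 1 E-box: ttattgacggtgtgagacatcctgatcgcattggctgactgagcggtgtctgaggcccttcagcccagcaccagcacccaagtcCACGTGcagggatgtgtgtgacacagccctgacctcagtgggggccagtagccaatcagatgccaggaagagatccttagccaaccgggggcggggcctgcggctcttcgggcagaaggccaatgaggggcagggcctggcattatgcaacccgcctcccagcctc
Lonrf3, chrX:36328159-36328408, plus strand, 1 E-box: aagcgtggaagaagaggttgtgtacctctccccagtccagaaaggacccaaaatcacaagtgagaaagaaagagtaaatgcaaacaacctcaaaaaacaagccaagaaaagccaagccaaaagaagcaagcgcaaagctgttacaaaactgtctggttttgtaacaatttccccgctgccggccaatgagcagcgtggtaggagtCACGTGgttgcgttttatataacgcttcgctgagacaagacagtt
Per3, chr4:151044666-151044915, minus strand, 2 D-boxes: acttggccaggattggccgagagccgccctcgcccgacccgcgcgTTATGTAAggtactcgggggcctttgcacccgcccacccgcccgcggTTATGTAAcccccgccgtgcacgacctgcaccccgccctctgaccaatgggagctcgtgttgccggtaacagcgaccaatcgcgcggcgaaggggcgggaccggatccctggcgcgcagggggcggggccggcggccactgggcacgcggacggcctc
Leo1, chr9:75441274-75441523, plus strand, 1 ROR half-site: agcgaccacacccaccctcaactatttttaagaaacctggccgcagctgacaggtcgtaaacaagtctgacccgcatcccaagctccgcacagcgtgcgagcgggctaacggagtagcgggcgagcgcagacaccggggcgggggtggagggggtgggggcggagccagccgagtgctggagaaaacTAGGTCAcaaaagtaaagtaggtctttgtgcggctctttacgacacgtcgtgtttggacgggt
Hmgcs1, chr13:119690101-119690350, plus strand, 1 sterol element: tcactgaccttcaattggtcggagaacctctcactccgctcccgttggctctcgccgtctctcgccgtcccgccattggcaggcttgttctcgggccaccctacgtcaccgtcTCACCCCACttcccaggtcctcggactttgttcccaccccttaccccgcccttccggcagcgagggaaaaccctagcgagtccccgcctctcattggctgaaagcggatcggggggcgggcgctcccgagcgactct
Sc5d, chr9:42264301-42264550, minus strand, 1 E-box: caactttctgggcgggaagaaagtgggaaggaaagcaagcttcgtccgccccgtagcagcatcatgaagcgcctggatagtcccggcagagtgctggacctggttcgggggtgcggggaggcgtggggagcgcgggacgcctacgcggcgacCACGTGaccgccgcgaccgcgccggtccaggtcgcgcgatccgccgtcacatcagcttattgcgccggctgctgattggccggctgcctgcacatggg
Dhcr7, chr7:143823149-143823398, plus strand, 1 of 3 start sites, 1 E-box and 1 ROR half-site: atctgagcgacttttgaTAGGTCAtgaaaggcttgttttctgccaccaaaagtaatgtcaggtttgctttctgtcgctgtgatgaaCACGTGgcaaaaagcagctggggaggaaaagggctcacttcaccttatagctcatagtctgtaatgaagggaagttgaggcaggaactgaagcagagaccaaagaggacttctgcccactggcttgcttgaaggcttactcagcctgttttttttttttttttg

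Counted from the start site, the first E-box of Ciart lies at -116 to -111 and the next at -58 to -53, that of Per1 at -166 to -161, that of Lonrf3 at -45 to -40 and that of Sc5d at -98 to -93. Per1 has another start site in RefSeq, whose window (chr11:69099902-69100151) holds 0 of these motifs. Of the 32851 promoters of this length in the RefSeq table, 6.02% hold an E-box, 3.85% an E-prime box, 0.82% a D-box, 2.23% a ROR half-site and 1.05% the sterol element. Of the 77 genes called higher that had a promoter in the table, 17 had an E-box in at least 1 promoter, against 7 of 70 called lower and 1098 of 12396 tested. A D-box was found in 4 of the genes called higher, in 0 of those called lower and in 96 of those tested. These matches describe letters in these windows and were not tested, and several changed genes, Arntl, Alas1 and Usp2 among them, hold none of the motifs there.

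Of 19514 genes tested, 106 were called higher and 86 lower with the mixture, a call being an adjusted p under 0.05 in limma with Benjamini-Hochberg adjustment over all genes. That is 0.543% of the genes called higher and 0.441% called lower. The changes were moderate: the median size among the 192 called genes was 0.76 on the log2 scale, and 27 of the rises and 29 of the falls reached 2-fold. In all 192 the 5 pollutant arrays and the 3 vehicle arrays did not overlap, whereas over all genes tested 3.93% lay higher without overlap and 4.4% lower. The same sign within slides 1, 2 and 5 follows from this lack of overlap and is no separate check. The counts rest on few arrays. With slide as a block, 32 genes were higher and 35 lower, 55 of them among the 192, and without the arrays of slide 1, which leaves 2 vehicle arrays, 0 were higher and 3 lower (Id1, Id2 and Gstp3), with 2079 genes at an unadjusted p under 0.05. Leaving out vehicle replicate 1, 2 or 3 gave 17, 53 and 20 genes higher and 22, 23 and 26 lower. Without pollutant replicate 1 there were 51 lower, without replicate 3 there were 54 higher and 44 lower, without replicate 4 there were 48 and 41, and without replicate 5 there were 52 and 39. In each of these fits the lone or paired arrays of a group are taken to vary like the rest.

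**Figure D1:**
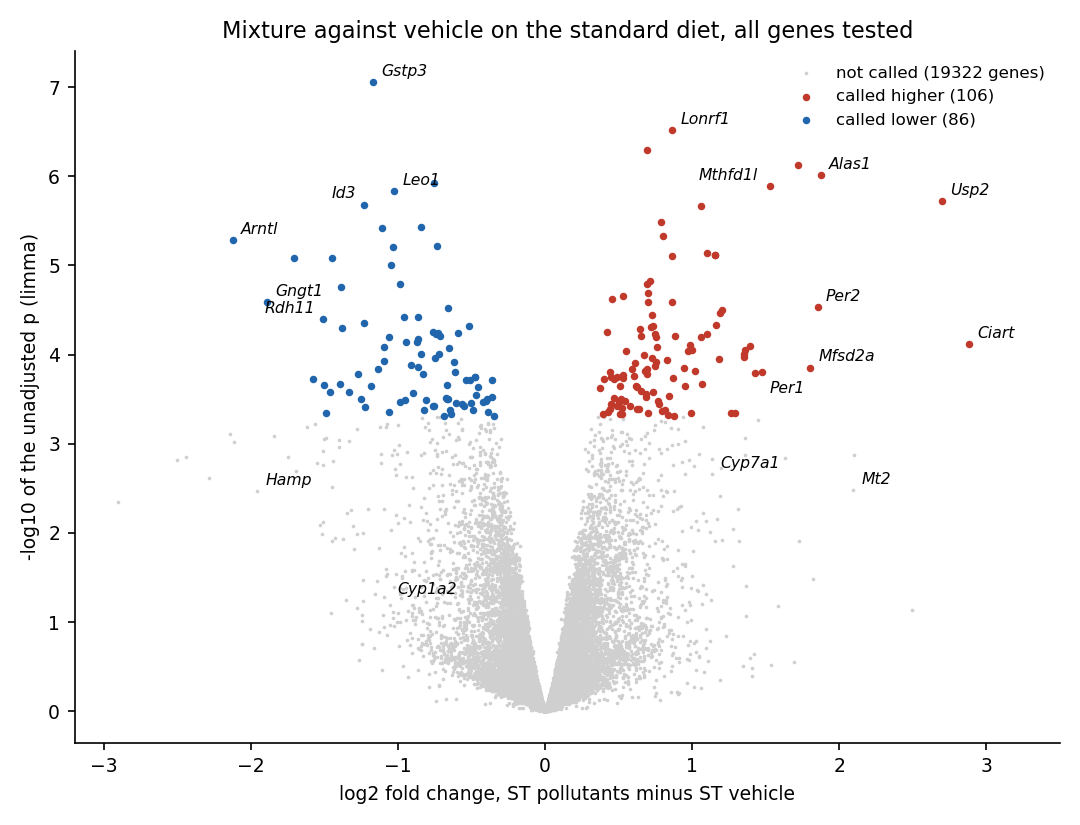
Log2 fold change (x axis, ST pollutants minus ST vehicle) against -log10 of the unadjusted limma p (y axis) for 19514 genes, with the 106 called higher in red, the 86 called lower in blue and the others in grey. Usp2, Alas1 and Ciart stand at the right, Arntl and Gngt1 at the left, and Mt2, Hamp, Cyp7a1 and Cyp1a2 are labelled among the genes not called.

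The clock genes held the largest changes in both directions. Arntl, the activator at the centre of the clock, stood at log2 levels of -3.94, -3.84, -3.55, -3.49 and -3.70 on the pollutant arrays and at -1.77, -2.20 and -0.76 on the vehicle arrays. All 5 exposed livers lay below the lowest control, a fall of 2.13 ± 0.28 (SE; 4.36-fold, adjusted p = 0.00636 in limma). Its partner Clock fell by 0.64 ± 0.13 (1.56-fold, adjusted p = 0.0483), from -1.57 to -1.22 on the vehicle arrays to -2.32 to -1.84. With slide as a block the adjusted p was 0.0379 for Arntl and 0.0913 for Clock. Of 5 genes listed as core activators 4 were measured, 2 of them fell and 0 rose, and Npas2 was too dim to test.

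Among the 8 measured core repressors 4 rose and 0 fell. Ciart, which blocks the Clock-Arntl pair, read -2.86, -1.66, -0.96, -0.96 and -0.80 on the pollutant arrays and -4.13, -3.86 and -4.99 on the vehicle arrays, where it was well above background on 2 of 3. Its rise of 2.88 ± 0.49 (7.36-fold, adjusted p = 0.0220) was the largest of the called genes in this model, and it was 1.46 in the authors' deposited table fitted the same way (adjusted p = 0.0250). The rises were 1.27, 2.20 and 4.20 within slides 1, 2 and 5, and the adjusted p was 0.0787 with slide as a block. The period genes, which form the repressing complex with the cryptochromes, all rose: Per2 by 1.85 ± 0.29 (3.62-fold, adjusted p = 0.0157), Per1 by 1.47 ± 0.27 (2.77-fold, adjusted p = 0.0302) and Per3 by 1.27 ± 0.27 (2.41-fold, adjusted p = 0.0483). Per1 stood at 2.20, 2.87, 2.63, 2.54 and 3.08 with the mixture and at 1.29, 1.40 and 0.88 with vehicle, without overlap, while a second, dimmer Per1 probe gave a difference of -0.01 and the mean of its probes 0.73 (adjusted p = 0.0882). With slide as a block these period genes did not pass (adjusted p = 0.0678, 0.0678 and 0.163). Nr1d2, a repressor of Arntl, was at 0.47 ± 0.11 (adjusted p = 0.0727) and its relative Nr1d1 at -1.02 ± 0.31 (adjusted p = 0.170), and neither was called. Cry2 was at 0.43 ± 0.14 (adjusted p = 0.221), and Cry1 was well above background on 0 arrays.

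Of 23 output genes listed, all measured, 7 rose and 1 fell, with a median fold change of 0.66 against -0.01 over all genes. Like the other lists, this one was chosen with earlier results of these data known, so its count and median only describe its members. Usp2, a deubiquitinase with a strong daily rhythm in liver, read 1.94, 2.31, 2.48, 2.57 and 2.29 with the mixture and -0.56, 0.54 and -1.13 with vehicle. The exposed livers lay close together and the controls were spread over a wider range, and the rise was 2.70 ± 0.32 (6.49-fold, adjusted p = 0.00381; 0.0295 with slide as a block). Alas1, the first and limiting enzyme of heme synthesis, read 7.51, 7.26, 7.30, 7.17 and 7.78 against 5.27, 5.90 and 5.41. Every exposed liver was above every control, by 1.88 ± 0.21 on average (3.67-fold, adjusted p = 0.00358; 0.0140 with slide as a block), and a second probe gave 1.36. The kinase Wee1, which holds cells before mitosis, rose by 1.35 ± 0.24 (adjusted p = 0.0245), the RING finger gene Lonrf3 by 1.20 ± 0.19 (adjusted p = 0.0164) and Por, the electron donor of the cytochromes P450, by 0.87 ± 0.16 (adjusted p = 0.0312). Leo1, a subunit of the Paf1 transcription complex, was the output gene that fell, from -0.09, -0.05 and 0.08 with vehicle to between -1.15 and -0.93 with the mixture (-1.03 ± 0.12, adjusted p = 0.00358; 0.0267 with slide as a block). Dbp, the best known output factor, was at 0.83 ± 0.23 (adjusted p = 0.127), with vehicle replicate 2 at 5.39 inside the pollutant range of 5.27 to 5.87. The remaining genes of the 7 that rose were the Dbp relative Tef (0.99 ± 0.21, adjusted p = 0.0483) and the NAD enzyme Nampt (0.98 ± 0.17, adjusted p = 0.0224). Outside the list, Cipc, an inhibitor of Clock, rose by 0.75 ± 0.12 (adjusted p = 0.0199, and 0.0295 with slide as a block). Tef, Nampt and Cipc were chosen after their values were seen.

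**Figure D2:**
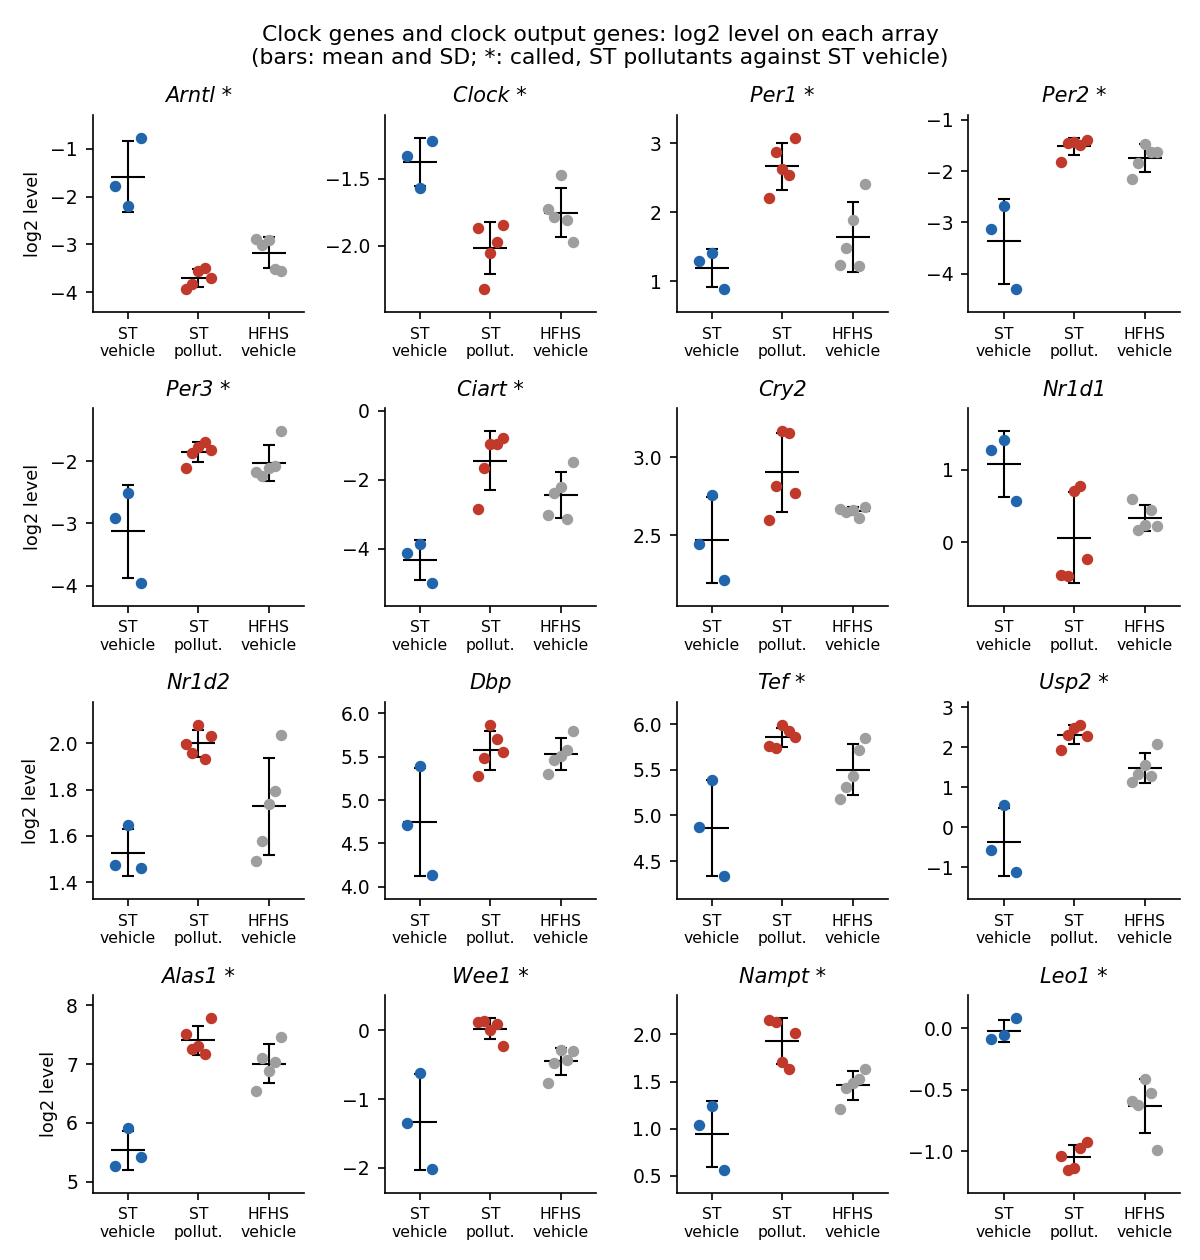
Log2 level (y axis, per panel) of 16 clock and clock output genes on each array of ST vehicle (blue, 3), ST pollutants (red, 5) and HFHS vehicle (grey, 5), with the group mean and SD as bars and an asterisk on the genes called between the ST groups. The pollutant points of Arntl lie between -3.94 and -3.49, below all vehicle points, and those of Usp2 between 1.94 and 2.57, above them; vehicle replicate 3 lies farthest from the pollutant points for Arntl, Per2, Per3, Ciart, Usp2 and Wee1.

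The vehicle arrays differed among themselves in these same genes. In Per1, Per2, Per3, Ciart, Usp2, Wee1 and Dbp vehicle replicate 3 was the farthest of the 3 controls from the mean of the pollutant group and vehicle replicate 2 the nearest, and the same held for Arntl and Clock. The mean of the repressor list differed between the groups by 0.44, 0.47 and 1.54 within slides 1, 2 and 5, the last holding vehicle replicate 3. The part of this spread in the group difference was not tested.

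Enzymes of cholesterol synthesis were lower with the mixture along nearly the whole pathway, although few passed the test one by one. Of 21 enzymes listed, all measured, 5 fell and 0 rose. Over the 10 enzymes up to squalene the median fold change was -1.13, with 3 called and 8 lower without overlap, and over the 11 enzymes after squalene it was -0.84, with 2 called, 8 lower without overlap and all 11 negative. Over all genes the median was -0.01, with 0.441% called lower and 4.4% lower without overlap. Hmgcs1, the synthase of the early pathway, stood at 4.73, 5.22, 4.87, 4.48 and 5.01 with the mixture and at 6.08, 6.51 and 6.18 with vehicle. The groups were separated by more than the range within either, with a fall of 1.39 ± 0.27 (2.63-fold, adjusted p = 0.0342); the second probe gave -1.77. Acat2, the thiolase that makes acetoacetyl-CoA, read 4.10, 3.80, 4.21, 3.75 and 3.45 against 4.80, 4.93 and 4.84. It fell by 0.99 ± 0.14 (1.99-fold, adjusted p = 0.0113) and was the enzyme of the first branch that also passed with slide as a block (0.0344). The mevalonate kinase Mvk fell by 1.22 ± 0.25 (2.34-fold, adjusted p = 0.0456). In the last steps, the desaturase Sc5d fell by 0.84 ± 0.15 (1.79-fold, adjusted p = 0.0245; 0.0379 with slide as a block) and the reductase Dhcr7 by 1.49 ± 0.31 (2.81-fold, adjusted p = 0.0483). Hmgcs1, Mvk and Dhcr7 did not pass with slide as a block (adjusted p = 0.0624, 0.0958 and 0.0678).

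Several steps between these had differences as large that did not pass. Fdps, which makes farnesyl diphosphate, was at -1.51 ± 0.38 (adjusted p = 0.0869), Idi1, the isomerase before it, at -1.45 ± 0.36 (adjusted p = 0.0841) and Nsdhl, a sterol dehydrogenase, at -1.49 ± 0.34 (adjusted p = 0.0650). Lss, which closes the sterol rings, was at -1.28 ± 0.28 (adjusted p = 0.0580) and passed with slide as a block (0.0267). Sqle, the epoxidase after squalene, was at -1.03 ± 0.59 (adjusted p = 0.573): the ST groups did not overlap (2.38 to 3.17 against 3.62 to 4.19), and the error of the model includes the HFHS arrays, which ranged from -1.02 to 2.40. Of the 13 measured genes of SREBP regulation and lipoprotein uptake 0 were called, with a median of -0.21.

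**Figure D3:**
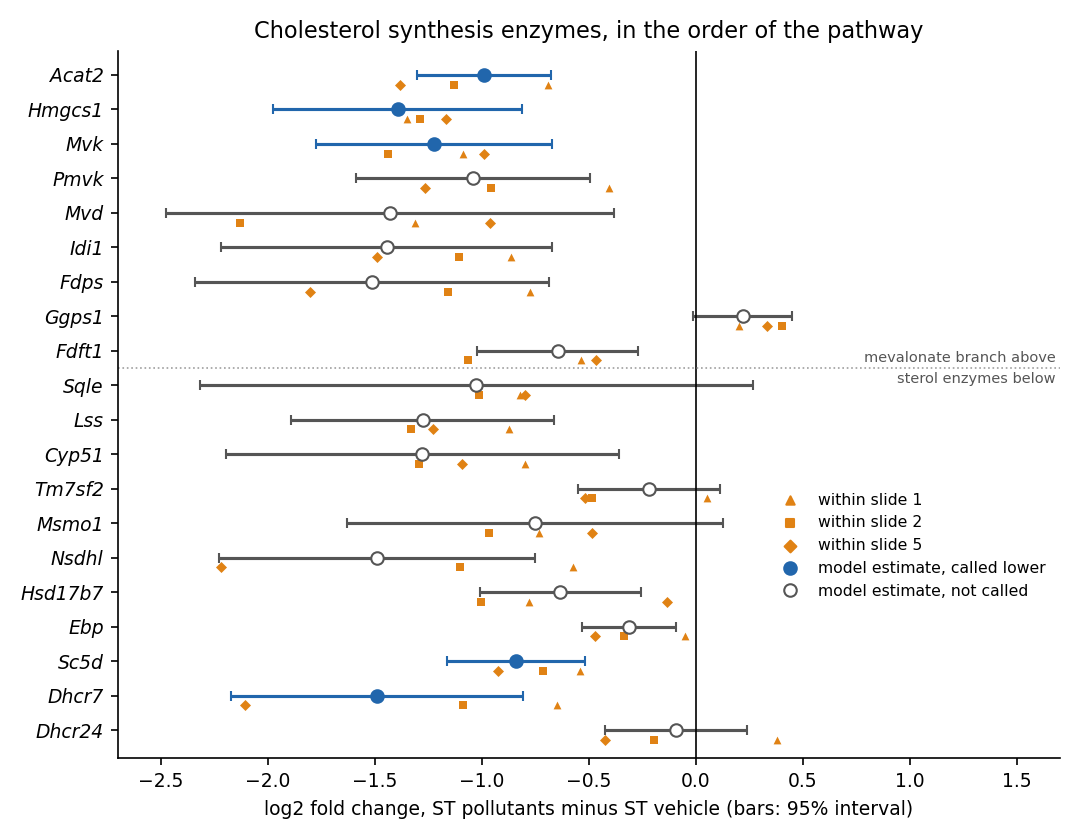
Log2 fold change (x axis, ST pollutants minus ST vehicle) of 20 of the cholesterol synthesis enzymes in pathway order, with 95% intervals of the limma model (circles, filled blue where called lower) and the differences within slides 1, 2 and 5 (orange). The 5 called enzymes lie between -1.49 and -0.84, and the interval of Ggps1, a side branch, reaches furthest above 0 among those drawn.

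Neighbouring lipid pathways showed single changes. Acss2, which makes cytosolic acetyl-CoA from acetate, was the called member among 13 measured genes of fatty acid synthesis: it read 3.32, 3.60, 2.82, 2.57 and 2.41 with the mixture and 4.17, 4.65 and 4.51 with vehicle, a fall of 1.51 ± 0.29 (2.84-fold, adjusted p = 0.0345; 0.0624 with slide as a block). Fasn, the synthase, was at -0.90 ± 0.36 (adjusted p = 0.315), its regulator Srebf1 at -0.27 ± 0.27 (adjusted p = 0.807) and the desaturase Scd1 at -0.20 ± 0.37 (adjusted p = 0.929). A fall of 1.51 ± 0.24 was seen for the retinol enzyme Rdh11 (2.85-fold, adjusted p = 0.0183; 0.0140 with slide as a block). Of 13 measured genes of triglyceride synthesis 2 acyltransferases rose, Gpat3 by 0.76 ± 0.13 (adjusted p = 0.0225) and Agpat1 by 0.70 ± 0.10 (adjusted p = 0.0134). Agpat1 was at -0.82 to -0.53 with the mixture and -1.50 to -1.33 with vehicle, with nearly equal differences of 0.76, 0.80 and 0.70 within slides 1, 2 and 5. Mfsd2a, which carries lysophosphatidylcholine and rises in fasted liver, read 3.67, 3.88, 3.84, 3.59 and 4.67 against 2.53, 2.49 and 1.36, and rose by 1.80 ± 0.33 (3.49-fold, adjusted p = 0.0290; 0.0958 with slide as a block). The lipid droplet protein Plin4 was at 1.45 ± 0.31 and just missed the threshold (adjusted p = 0.0514), and 0 of 16 genes of that list were called. Cidec, which enlarges droplets, was at 1.32 ± 0.45 (adjusted p = 0.225, its other probe at 0.32), with pollutant replicate 3 at -1.57 beside vehicle replicate 2 at -1.55. Pparg, which drives it, was at 0.21 ± 0.13 (adjusted p = 0.613). The mean log2 level of the droplet list was highest on pollutant replicate 2 (1.97, against 1.26 to 1.75 on the others), as was the mean of the 7 measured adipocyte markers (-0.54, against -3.63 to -2.20), a list that shares Plin1, Cidea and Lipe with it. Of the adipocyte markers Adipoq and Ucp1 were too dim to test. Their part in these lipid values was not tested; without that array the difference of Plin4 was 1.56.

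On the oxidation side most genes were slightly higher and few passed. The carnitine transporter Slc22a5, the called member of 20 genes of mitochondrial oxidation, rose by 0.84 ± 0.18 (1.79-fold, adjusted p = 0.0490; 0.0140 with slide as a block), and 16 of the 20 were positive, with a median of 0.22. Of the 12 acyl-CoA thioesterases, which release free fatty acids from their CoA esters, 2 rose: Acot5 by 1.35 ± 0.24 (adjusted p = 0.0256; its second probe at -0.19) and Acot4 by 0.95 ± 0.17 (adjusted p = 0.0290). Acot1, Acot2, Acot3, Acot4 and Acot5 lie side by side in the genome and are similar in sequence, so their probes may read each other. Acot1 (1.28 ± 0.41), Acot2 (1.05 ± 0.25) and Acot3 (0.93 ± 0.23) were not called, with adjusted p-values of 0.196, 0.0779 and 0.0856. The omega hydroxylases Cyp4a10 (0.81 ± 0.34) and Cyp4a14 (1.01 ± 0.36) were not called either (adjusted p = 0.342 and 0.248): Cyp4a14 read 7.23, 6.45, 7.75, 8.03 and 8.56 with the mixture and 6.84, 6.61 and 6.34 with vehicle, so pollutant replicate 2 lay within the control range. Ketogenesis and fasting genes had 0 of 11 called and all 11 positive, with a median of 0.28, and Fgf21, a fasting hormone, was at 0.29 ± 0.62 (adjusted p = 0.945).

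**Figure D4:**
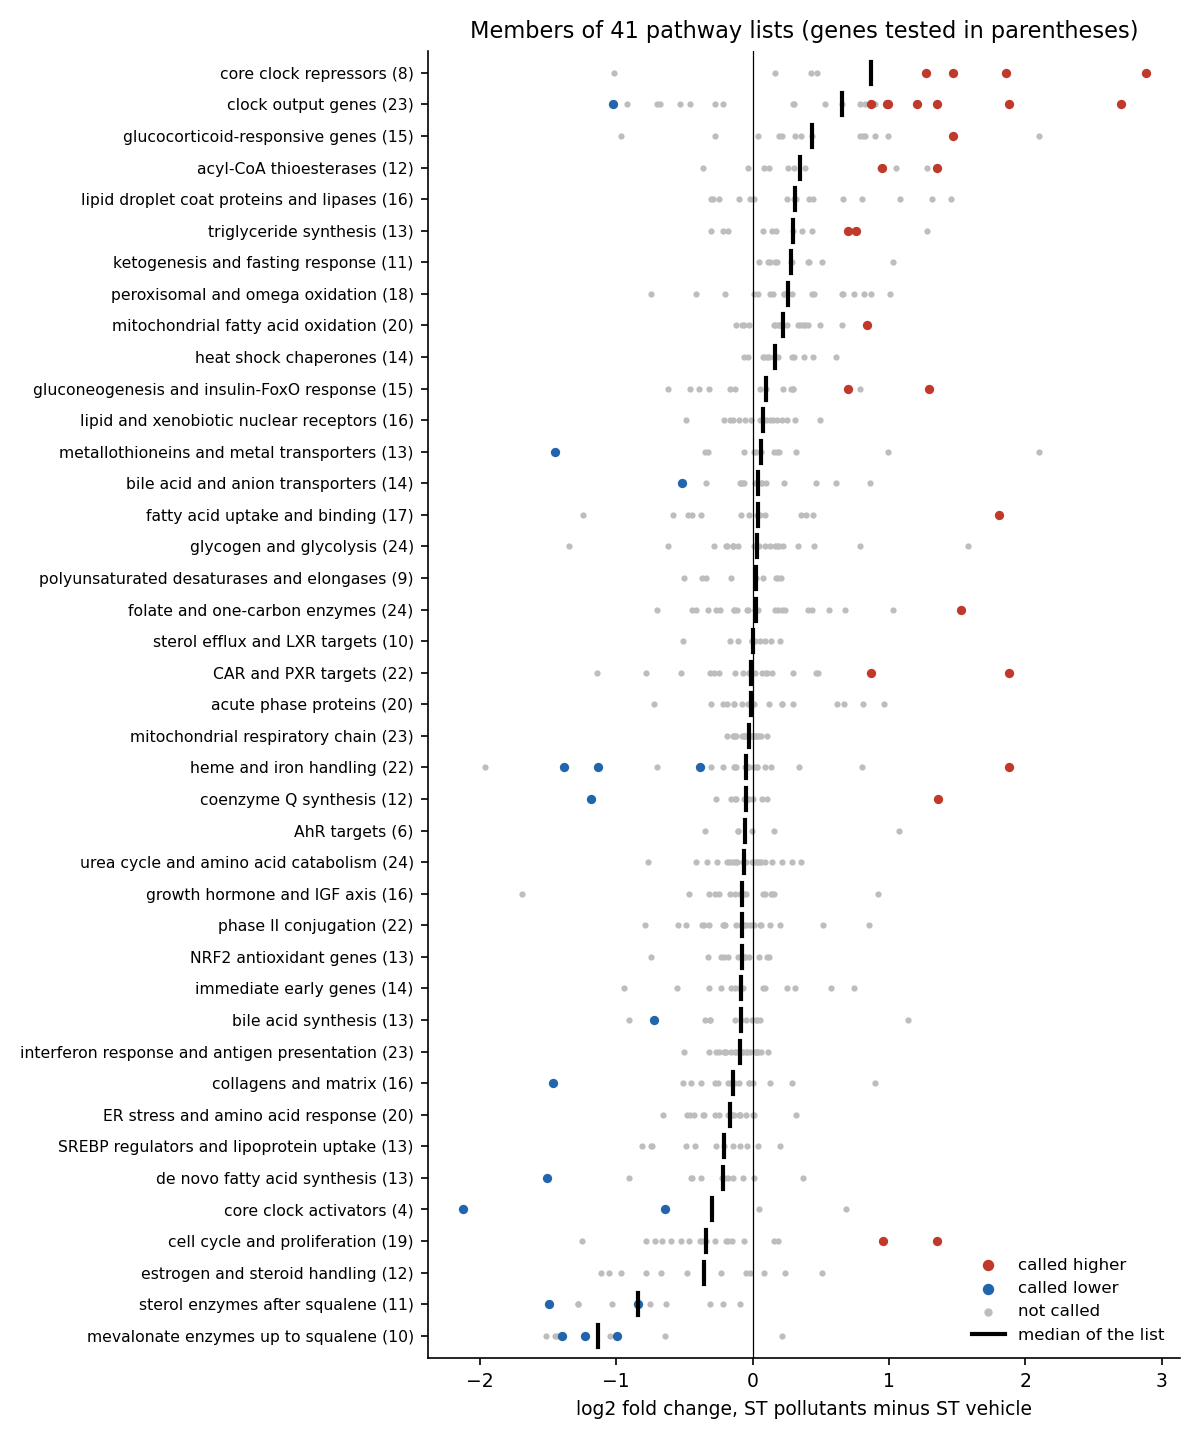
Log2 fold change (x axis, ST pollutants minus ST vehicle) of the measured members of 41 pathway lists (2 members are not drawn), 1 list per line in order of its median (black bar), with genes called higher in red, called lower in blue and not called in grey. The repressors and output genes of the clock lie at the top with medians of 0.87 and 0.66, and both branches of cholesterol synthesis at the bottom with medians of -0.84 and -1.13.

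Among the listed targets of the receptors for foreign compounds, Alas1 and Por were called. Over all genes 0.543% were called higher and 0.441% lower, so a list this short will mostly hold 0 called members. Of 6 measured AhR targets 0 passed, with a median of -0.05 and summed log2 levels of 5.70 to 6.33 with the mixture and 5.12 to 5.70 with vehicle. Their fold changes ran from -0.35 to 1.07, with 2 positive and 4 negative, and 1 lay higher without overlap, against 3.93% of all genes. Cyp1a2 read 3.11, 3.51, 3.42, 3.25 and 2.66 with the mixture and 3.37, 3.66 and 3.58 with vehicle, so the groups overlapped (-0.35 ± 0.17, adjusted p = 0.436). Tiparp was at -0.11 ± 0.11 and Nqo1 at -0.11 ± 0.20. Cyp1a2, Tiparp and Nqo1 were named by rule and all lay among the negative members, so the member at 1.07 was another gene of the list. Cyp1a1 was well above background on 4 of 13 arrays and Cyp1b1 on 2, and neither could be tested. Among 22 measured CAR and PXR targets, 2 rose, Alas1 and Por, which are also clock output genes, and the list's median was -0.01. Fold changes in this list ran from -1.14 to 1.88, with 10 positive and 12 negative. Without overlap 3 lay higher and 3 lower, against 3.93% and 4.4% of all genes. The defining targets Cyp2b10, of CAR, and Cyp3a11, of PXR, were at -0.03 ± 0.15 (95% interval -0.35 to 0.29) and 0.10 ± 0.16 (-0.24 to 0.45). Cyp2b10 ranged from 5.41 to 5.92 with the mixture and from 5.40 to 5.97 with vehicle. The 22 phase II enzymes, 13 NRF2 genes and 12 genes of estrogen and steroid handling each had 0 called, with medians of -0.08, -0.08 and -0.36. Among the last, the receptor Esr1 was at 0.24 ± 0.21 (adjusted p = 0.772) and the estrogen sulfotransferase Sult1e1, which ranged from -3.76 to -0.44 with the mixture and from -2.63 to 0.46 with vehicle, at -0.97 ± 0.91 (adjusted p = 0.791). Chosen after its values were seen, Gstp3, a glutathione transferase of the pi class, had the smallest p of all genes: it read -0.63, -0.55, -0.85, -1.0 and -0.87 against 0.28, 0.46 and 0.43, a fall of 1.17 ± 0.10 (2.25-fold, adjusted p = 0.00172; 0.0108 with slide as a block).

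Of 22 heme and iron genes measured 1 rose, Alas1, and 3 fell, Id1, Smad7 and Ppox. The BMP pathway raises the inhibitors Id1, Id2 and Id3 and the brake Smad7, and in hepatocytes the iron hormone hepcidin, Hamp. Id1 read 0.99, 0.22, 0.15, -0.05 and 0.03 with the mixture and 1.96, 1.71 and 1.28 with vehicle, and fell by 1.38 ± 0.23 (2.60-fold, adjusted p = 0.0199). Smad7 fell by 1.13 ± 0.21 (2.20-fold, adjusted p = 0.0294; 0.0379 with slide as a block). Id2 read 3.20, 1.97, 1.91, 2.01 and 2.37 against 3.45, 3.68 and 3.55. It fell by 1.27 ± 0.24 (adjusted p = 0.0307), with pollutant replicate 1 close to the controls. Neither Id1 nor Id2 passed with slide as a block (adjusted p = 0.0678 and 0.104). Chosen after their values were seen, Id3 fell by 1.23 ± 0.15 (2.34-fold, adjusted p = 0.00381; 0.0342 with slide as a block) and Atoh8, another BMP target, by 1.06 ± 0.18 (adjusted p = 0.0199; 0.0426). Hamp was at -1.96 ± 0.54 and was not called (adjusted p = 0.124), although its pollutant values, 3.13 to 4.97, all lay below the vehicle values, 6.23 to 6.32. In heme synthesis, where Alas1 rose, the later enzyme Ppox fell by 0.39 ± 0.08 (adjusted p = 0.0481).

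Of 13 measured genes of bile acid synthesis 1 fell and 0 rose, with a median of -0.09, and of 14 bile acid and anion transporters 1 fell and 0 rose, with a median of 0.04. Hsd3b7, an early enzyme of bile acid synthesis, fell by 0.72 ± 0.13 (1.65-fold, adjusted p = 0.0246; 0.0941 with slide as a block), and the export pump Abcb11 by 0.52 ± 0.08 (1.43-fold, adjusted p = 0.0197; 0.0295 with slide as a block). Cyp7a1, the limiting enzyme, read 2.18, 2.59, 2.82, 2.85 and 2.56 with the mixture and 0.85, 1.32 and 2.23 with vehicle. It was at 1.14 ± 0.29 and was not called (adjusted p = 0.0979), vehicle replicate 3 lying within the pollutant range.

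Genes of glucose, one-carbon and mitochondrial metabolism held a few single changes. Slc37a4, the transporter that feeds glucose-6-phosphatase, rose by 0.70 ± 0.11 (1.62-fold, adjusted p = 0.0144; 0.0648 with slide as a block; its other probe at 0.14), and Sik1, a kinase induced by glucagon signals, by 1.29 ± 0.27 (2.45-fold, adjusted p = 0.0483; 0.0624 with slide as a block). No other of the 15 genes of gluconeogenesis and insulin response was called, and Pck1 was at 0.79 ± 0.23 (adjusted p = 0.154). Mthfd1l, the mitochondrial enzyme that releases formate from folate, was the called member of 24 one-carbon genes: it read -1.63, -1.88, -2.18, -1.78 and -1.92 against -3.23, -3.40 and -3.59. Its rise of 1.53 ± 0.17 (2.88-fold, adjusted p = 0.00358; 0.0140 with slide as a block) was 1.61, 1.52 and 1.67 within slides 1, 2 and 5, and the other probe gave 1.73. It was smaller, 0.86, in the authors' deposited table fitted the same way (adjusted p = 0.00534), and did not pass with normexp background correction or without the arrays of slide 1. Of 12 genes of coenzyme Q, Coq10b, which carries or chaperones it, rose by 1.36 ± 0.24 (adjusted p = 0.0234) and the kinase-like Coq8a fell by 1.19 ± 0.23 (adjusted p = 0.0345), and with slide as a block neither passed (adjusted p = 0.0678 and 0.0569). Of the 23 respiratory chain subunits 0 were called, with a median of -0.03.

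Of 13 metallothioneins and metal transporters 1 fell and 0 rose. Slc30a10, a manganese exporter, read -2.22, -2.62, -1.68, -1.91 and -2.29 with the mixture and -0.86, -0.64 and -0.57 with vehicle, and fell by 1.45 ± 0.20 (2.73-fold, adjusted p = 0.00676; 0.0254 with slide as a block). The metallothionein Mt2, which binds zinc and copper and answers to metals and glucocorticoids, read 7.95, 7.26, 7.46, 7.69 and 7.38 against 5.35, 5.67 and 5.33. Despite a difference of 2.10 ± 0.58 (4.28-fold) it was not called (adjusted p = 0.123). The model takes its spread from all 13 arrays, and on the HFHS arrays Mt2 ranged from 3.73 to 7.07. In a fit of the 8 ST arrays alone the same difference had an SE of 0.17 (adjusted p = 0.0192), and its neighbour Mt1, at 0.99 ± 0.32 in the model of all arrays (adjusted p = 0.192), had an SE of 0.10 (adjusted p = 0.0230). That fit called 21 genes higher and 19 lower, and 4 of them were not among the 192: Mt1, Mt2, Pip5k1a and Gm15998, all named after their values were seen. Of 15 genes listed as responsive to glucocorticoids 1 rose, Per1, and 13 were positive, with a median of 0.44, and Tsc22d3, a defining member, was at 0.90 ± 0.21 (adjusted p = 0.0681).

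Other genes of large change had varied roles. Gngt1, a G protein gamma subunit best known from photoreceptors, fell by 1.89 ± 0.29 (3.70-fold, adjusted p = 0.0144; 0.0140 with slide as a block), and its pollutant values of -4.52 to -3.66 were near the dim end of the arrays. Falls were also called for the GTPase activator Asap2 (-1.58 ± 0.30, adjusted p = 0.0312), the matrix protein Spon2 (-1.47 ± 0.29, adjusted p = 0.0381), Mrnip, a DNA repair factor (-1.39 ± 0.20, adjusted p = 0.0118), the tight junction gene Cldn1 (-1.33 ± 0.26, adjusted p = 0.0381) and Ncmap (-1.25 ± 0.25, adjusted p = 0.0419). Rises were called for the nuclease Dclre1a (1.19 ± 0.19, adjusted p = 0.0171), the adenylate kinase Ak4 (1.18 ± 0.21, adjusted p = 0.0258) and the cyclin Ccne1 (0.95 ± 0.18, adjusted p = 0.0345). Ccne1 and Wee1 were the called members of 19 cell cycle genes, whose median was -0.34. Named after their values were seen, the host genes of small nucleolar RNAs Zfas1 (0.86 ± 0.12, adjusted p = 0.00676; 0.0267 with slide as a block), Snhg12 (0.69 ± 0.14, adjusted p = 0.0397), Snhg5 (0.70 ± 0.15, adjusted p = 0.0483) and Snhg3 (0.49 ± 0.09, adjusted p = 0.0312) rose, and so did Nrg4, a secreted growth factor (1.16 ± 0.19, adjusted p = 0.0197; 0.0285 with slide as a block; other probes at 0.84 and 1.41).

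Of 14 marker lists of cell types 12 had 0 called members. Cdh1, listed for the periportal zone and also expressed in bile ducts, fell by 0.98 ± 0.20 (adjusted p = 0.0428; 0.24 lower within slide 2), and Ngfr, listed for stellate cells, by 0.71 ± 0.12 (adjusted p = 0.0199); the medians of their lists were -0.11 and -0.08. The 4 measured erythroid markers had a median of 0.52, with 0 called and 3 of 4 higher without overlap, against 3.93% of all genes. Their summed log2 levels were 6.79 to 7.17 with the mixture and 6.20 to 6.70 with vehicle. The part of this in the results was not tested. Alas2, the erythroid form of the enzyme whose liver form rose, was at 0.53 ± 0.19. Skeletal muscle markers (8 measured, 0 called) varied widely in both groups, with mean log2 levels of -3.18 to -0.72 with the mixture and -3.60 to -1.16 with vehicle, and differences of 0.35, 2.89 and -1.48 within slides 1, 2 and 5. The 7 adipocyte markers differed by 1.60 within slide 2, where pollutant replicate 2 stood, and by -0.35 and -0.20 within slides 1 and 5. The 10 measured pancreatic acinar markers had a median of 0.02 and summed log2 levels of 2.65 to 3.29 with the mixture and 2.72 to 3.00 with vehicle. Their mean log2 levels were -3.19 to -1.58 with the mixture and -2.98 to -2.31 with vehicle. On the HFHS arrays these means were -2.51 and -2.85 on replicates 1 and 2, but 5.00, 3.75 and 7.09 on replicates 3, 4 and 5. The part of this in the spread of the model and in the direct comparison with the HFHS arrays was not tested. Acute phase proteins (0 of 20 called, median -0.01) and interferon genes (0 of 23, median -0.09) showed no call either. The mean log2 level of the acute phase list was 5.47 on pollutant replicate 1. It was 4.40 to 4.72 on the other pollutant arrays and 4.53 to 4.80 with vehicle.

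Both the mixture and the high-fat diet were compared with the same 3 vehicle arrays, so the fold changes of the 2 comparisons share an error, and the groups were instead set against each other directly (5 arrays each, 1 of each per slide), for single genes chosen after their values were seen. Acat2 was lower with the mixture than on the high-fat diet by 0.85 (adjusted p = 0.00586 in limma), and its fold changes against vehicle were -0.99 and -0.14. Sik1 was higher with the mixture by 1.30 (adjusted p = 0.0102; 1.29 and -0.01 against vehicle), Mfsd2a by 1.39 (adjusted p = 0.0208; 1.80 and 0.42), Mthfd1l by 0.95 (adjusted p = 0.00603; 1.53 and 0.58) and Lonrf3 by 0.97 (adjusted p = 0.00770; 1.20 and 0.23). Slc37a4 was higher by 0.61 (adjusted p = 0.00586), Per1 by 1.02 (adjusted p = 0.0359) and Slc22a5 by 0.66 (adjusted p = 0.0350), while Gstp3 was lower by 0.76 (adjusted p = 0.00586), Ngfr by 0.65 (adjusted p = 0.00620) and Ncmap by 1.17 (adjusted p = 0.0122). The 4 small nucleolar host genes were higher with the mixture as well, by 0.50 for Snhg3 to 1.24 for Snhg5 (adjusted p = 0.00608 and 0.00461). All of these 15 differences passed with slide as a block too, and 0 of them without the arrays of slide 1. With normexp background correction 5 did not pass: Snhg5 at 0.17 (adjusted p = 0.759), Mthfd1l at 0.35 (0.461), Sik1 at 0.82 (0.134), Slc22a5 at 0.59 (0.0736) and Acat2 at -0.70 (0.0596). Per1 was at 0.54 with the mean of its probes (adjusted p = 0.0819). For other genes no difference from the high-fat diet was detected: Arntl differed by -0.53 (95% interval -1.05 to -0.01, adjusted p = 0.265), Per2 by 0.23 (-0.31 to 0.77, adjusted p = 0.752), Alas1 by 0.40 (0.01 to 0.79, adjusted p = 0.261) and Hmgcs1 by 0.59 (0.09 to 1.09, adjusted p = 0.193), intervals that are not adjusted for the number of genes and leave room for sizeable differences. On the high-fat diet against vehicle, Arntl, Per2, Alas1 and Hmgcs1 were at -1.60, 1.63, 1.48 and -1.98 (adjusted p = 0.0242, 0.0258, 0.0115 and 0.0115 in limma). Of the 192 called genes, 180 had the same sign in that comparison, a count that the shared vehicle arrays can raise. The direct difference was called for 56 of the 192, and for 756 of all 19514 genes. HFHS replicates 3, 4 and 5 had high levels of the pancreatic acinar markers, and the part of this in these counts was not tested.

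Slides were the one technical grouping that the files show, and 48 of the 69 genes named by rule and reported here were called. All 48 had the same sign within slides 1, 2 and 5, which their lack of overlap between the groups fixes in advance. With slide as a block 15 of them passed: Usp2, Alas1, Mthfd1l, Arntl, Gngt1, Rdh11, Slc30a10, Mrnip, Leo1, Acat2, Sc5d, Agpat1, Slc22a5, Abcb11 and Smad7. Alas1, Leo1, Slc30a10 and Usp2 kept their call in 21 of 22 other settings, losing it without the arrays of slide 1, and 0 of the 48 kept it in all 22. With normexp background correction 9 of the 48 passed. For most of the 48 the difference within slide 5, which holds vehicle replicate 3, was the largest in size. Ciart, Per1, Per2, Per3, Arntl, Mfsd2a, Usp2, Acss2 and Dhcr7 were among them. For others, such as Lonrf3, Hmgcs1, Mrnip, Smad7 and Ccne1, it was the smallest.

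**Figure D5:**
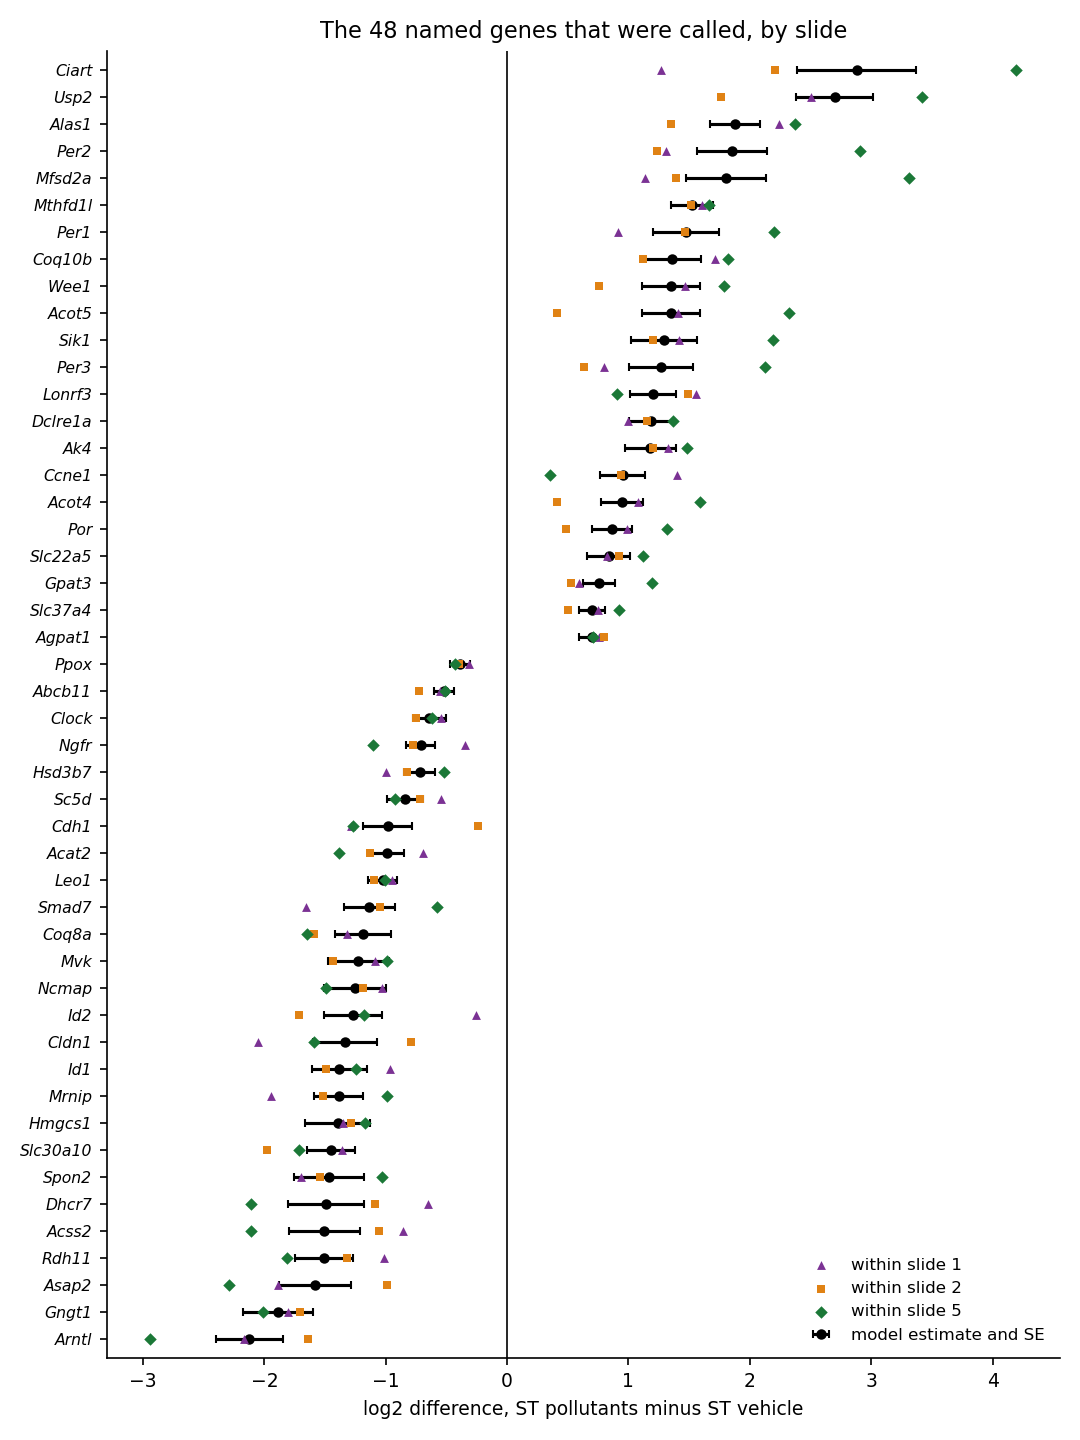
Log2 difference (x axis, ST pollutants minus ST vehicle) for the 48 named genes that were called, with the limma estimate and its SE in black and the difference between the pollutant and the vehicle array within slide 1 (purple), slide 2 (orange) and slide 5 (green). All points lie on one side of 0 for each gene, as they must where the groups do not overlap, while Ciart spans 1.27 to 4.20 and Mthfd1l 1.52 to 1.67.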

How the data were processed

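Liver RNA of 13 mice was measured on one-colour Agilent arrays, with 0.1 ug of RNA labelled with Cy3, per the labels' protocols. Intensities are the processed signals deposited by the authors, which per the file headers are background-subtracted by Agilent Feature Extraction 11.5.1.1. The authors' deposited value table, in log2 and for which the submitters' processing notes name limma, served as an alternative only.

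Control probes and outlier spots were left out, spots of a probe were averaged, and log2 signals were reduced by each array's 75th percentile. Probes were kept where every array of some group measured them well above background (25030 of 39429), and the brightest probe stood for a gene (19514 genes). Missing values (128, in 121 genes) were dropped by the fit. A model of all 3 groups was fitted to the 13 arrays with limma 3.58.1 in R 4.3.3, with Benjamini-Hochberg adjustment over all genes. It was tested on simulated data. SE, intervals and p-values measure the spread between these arrays, whose number limits the precision.

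Genes were named by rule: the 15 largest called changes in each direction without overlap of the arrays, from each list the called members with the smallest p, at most 4, and 32 fixed genes, of which 4 could not be tested; 3 named genes are not reported here. The comparison, the 41 pathway lists and the 14 marker lists were chosen with earlier results of these data known. Promoters came from RefSeq (GRCm38.p6). Deviations from the group means correlated at 0.416 and 0.130 in 2 same-numbered pairs, which share a slide, and at -0.168 in the third, which does not. The numbers were therefore not taken as pairs. Vehicle replicate 3 and pollutant replicate 5, the other pair on a slide, correlated at 0.276, and slide was tried as a block. Alternatives changed the scaling, background, filter, probe choice, block, weights and arrays used.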

Additional observations from a re-analysis of the deposited data

Results flagged for a closer look

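In some genes 1 of the 5 pollutant arrays stood far from the other 4, its gap to the nearest being over 0.71 of the range of the group. In groups of 5 chance gives such a gap about 1 time in 20, and 117 values were examined. Replicate 1 was the lowest for Per2 (-1.81) and Cldn1 (-3.33) and the highest for Id1 (0.991) and Por (6.23). Replicate 5 was the highest for Mfsd2a (4.67), for Slc22a5 (0.633) and for the mean of the acyl-CoA thioesterases (2.10). Replicate 3 was the lowest for the mean of the genes of estrogen and steroid handling (1.43).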

How the results depend on the processing

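The counts of 106 genes higher and 86 lower became 13 and 9 with normexp background correction, 38 and 32 with no filter on dim probes, 32 and 35 with slide as a fixed block, 221 and 226 with slide as a random block, and 21 and 19 with only the 8 ST arrays. With an intensity trend in the prior 150 genes were lower. Without the arrays of slide 1 there were 0 and 3. With a replicate block, whose numbers equal the slide on all but vehicle replicate 3, there were 22 and 22. Leaving out 1 array gave 17 to 85 genes higher and 22 to 70 lower. The cause of these shifts was not tested. Of the 48 named genes that were called, 0 kept the call in all 22 alternatives, 15 kept it in more than 15 and 15 in fewer than 10, and 0 changed sign in any. Values near 0 changed sign: Cyp3a11 was at -0.035 with the replicate block, and Cyp2b10 at 0.030 without the arrays of slide 1. With 1 array left out Cyp2b10 ranged from -0.213 to 0.0763, Tiparp from -0.184 to 0.0416 and Nqo1 from -0.210 to 0.0169. The 15 differences from the high-fat group that passed, whose alternatives were chosen after seeing the data, passed with slide as a block and with the replicate block; 14 passed with the mean of probes, 13 with no filter on dim probes, 10 with normexp and 0 without the arrays of slide 1. Without 1 array 13 to 15 passed, Per1 and Slc22a5 being those lost. Called values that were more than 1.5 times smaller in the authors' deposited table and still passed were 7: Ciart (1.46), Per2 (1.09), Mthfd1l (0.86), Per3 (0.71), Arntl (-1.26), Gngt1 (-0.83) and Asap2 (-1.03). With normexp Ciart (1.78) and Gngt1 (-1.06), and with the mean of probes Per1 (0.73), Acot5 (0.58) and Slc37a4 (0.42), shrank as much and did not pass. Dim probes, such as that of Ciart with vehicle, lay near background, which limits their values.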

Other observations

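Some pathway lists with no called member lay mostly to one side of 0, which was not tested. Of 20 genes of ER stress and amino acid response 17 were negative, with 0 called and a median log2 fold change of -0.16. Of 14 heat shock chaperones 12 were positive, with 0 called and a median of 0.16. Of 18 genes of peroxisomal and omega oxidation 15 were positive, with 0 called and a median of 0.26.

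With slide as a block, 12 genes were called that the model without it did not call, and they are named here after their values were seen. Among them were the erythroid factor Nfe2 (-1.67 ± 0.14, adjusted p = 0.0108), the sterol enzyme Lss (-1.21 ± 0.15, adjusted p = 0.0267), Cbs, which makes cystathionine from homocysteine (-0.86 ± 0.12, adjusted p = 0.0379), and the peroxisome gene Pex11a (0.86 ± 0.13, adjusted p = 0.0426). With the 8 ST arrays alone Pip5k1a, a phosphoinositide kinase, was at 2.10 ± 0.19 (adjusted p = 0.0192) and Gm15998 at -1.08 ± 0.15 (adjusted p = 0.0463).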
